A study of Mus musculus with 9 samples.

Results

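Nitric oxide and cGMP signalling was followed through 10 genes: the synthases Nos1, Nos2 and Nos3, the S-nitrosoglutathione reductase Adh5, the cGMP-dependent kinases Prkg1 and Prkg2, the phosphodiesterase Pde5a, the kinase substrate Vasp, and the dimethylarginine hydrolases Ddah1 and Ddah2. Their probe sets are those of the whole-genome Affymetrix mouse array whose only annotated gene symbol is one of the 10, which gave 23 probe sets of 45101. D3-pOct4 cells, 1 line of mouse embryonic stem cells, were grown for 7 days in serum medium on 3 regimes. One group had LIF (leukemia inhibitory factor) at 1000 U/ml, a cytokine used to keep such cells undifferentiated, another had no LIF, and the last had no LIF and 2 µM of DETA/NO, a slow donor of nitric oxide. There are 3 arrays per group, with replicates 1, 2 and 3 taken at passages 31, 33 and 34. The labels do not tell how separate the cultures were beyond their passage, so the p-values rest on a spread among passages of 1 line and do not extend to other lines.

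Nitric oxide is made from arginine by the synthases. It activates soluble guanylate cyclase, whose product cGMP switches on the cGMP-dependent kinases and is broken down by phosphodiesterases such as Pde5a. Asymmetric dimethylarginine inhibits the synthases, and the Ddah enzymes degrade it, while Adh5 removes the S-nitrosoglutathione through which nitric oxide modifies proteins. Nitric oxide donors are known to affect self-renewal and differentiation of embryonic stem cells.

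The labels were first set against marker genes. All 8 embryonic stem cell markers passed the filter on low signals in these cultures, with Pou5f1 at 958 to 3211 and Dppa5a at 5137 to 9249. Of 28 markers of endothelium, smooth muscle, fibroblasts and macrophages 21 passed as well. Emcn, Myh11, Col3a1, Dcn, Lum, Ptprc and Itgam did not. Among all genes of the array 13376 of 18193 passed, so passing does not show that a cell type is present. The brightest of each list were Tagln at up to 1087, Cd68 at up to 591, Pdgfra at up to 509 (median 52) and Pecam1 at up to 390. Some others that passed stayed dim, with Col1a1 at up to 25.5, Csf1r at up to 41.3, Cdh5 at up to 42 and Cnn1 at up to 61.2. Further ones were brighter, with Acta2 at up to 302, Pdgfrb at up to 235, Esam at up to 165, Des at up to 129 and Smtn at up to 121. All 8 parietal endoderm markers passed, Sparc at up to 5512, and their summed signal was 5139 to 16463 with LIF, 2406 to 7308 without and 2345 to 5204 with the donor. The part of other cell types in the members' signals was not tested. Socs3, a target of LIF signalling, read 3213, 282 and 1794 on the arrays labelled LIF replicates 1 to 3, 102, 3054 and 330 on those labelled no LIF, and 95.8, 405 and 127 on the donor arrays. For Socs3 the array labelled LIF replicate 2 was low and that labelled no LIF replicate 2 was high, against their labels, and all directions follow the labels as given. LIF replicate 1 and donor replicates 1 and 2 had a higher median signal than the other 6 arrays, at 20.8 to 23.3 against 13.9 to 17.8, and are called the 3 brighter arrays. A lower amount of RNA per cell and fewer cells of one kind cannot be told apart in such bulk samples.

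RefSeq (GRCm38.p6) promoter sequences were matched for 7 of the 10 genes. Of these, 3 are shown because Ddah1 and Pde5a had the largest fitted differences with the donor against LIF among the genes matched, and Ddah2 held the STAT-type match that the others lacked. Each line is the 250 bases before the annotated start, on the plus strand, with matches to GGGCGG (the GC box) or TTCNNNGAA (the core bound by STAT factors) on either strand in capitals.
Ddah1, chr3:145758442-145758691: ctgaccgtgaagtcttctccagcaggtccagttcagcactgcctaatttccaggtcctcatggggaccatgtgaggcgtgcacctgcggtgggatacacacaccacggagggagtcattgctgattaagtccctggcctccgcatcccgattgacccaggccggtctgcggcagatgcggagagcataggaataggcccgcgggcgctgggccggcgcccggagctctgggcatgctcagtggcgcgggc
Pde5a, chr3:122728908-122729157: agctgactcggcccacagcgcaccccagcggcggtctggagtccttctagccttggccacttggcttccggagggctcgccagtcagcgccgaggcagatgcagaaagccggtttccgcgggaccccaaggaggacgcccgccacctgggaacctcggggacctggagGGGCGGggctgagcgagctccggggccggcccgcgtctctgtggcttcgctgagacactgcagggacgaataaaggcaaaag
Ddah2, chr17:35058785-35059034: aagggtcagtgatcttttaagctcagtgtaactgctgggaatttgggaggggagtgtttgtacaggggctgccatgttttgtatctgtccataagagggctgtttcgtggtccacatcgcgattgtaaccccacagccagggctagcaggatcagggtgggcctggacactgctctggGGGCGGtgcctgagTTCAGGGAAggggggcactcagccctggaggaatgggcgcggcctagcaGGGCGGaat
The Ddah1 stretch held no match, Pde5a held 1 GC box, and Ddah2 held 2 GC boxes and 1 STAT-type match, with no overlap between them. In all 32851 promoter stretches of that length, 32.7% held a GC box and 7.02% a STAT-type match. The cAMP response element TGACGTCA and the TATA box TATAAA were searched as well, occur in 1.55% and 12.4% of all stretches, and had no match in the 3 shown. A match is only a description of the letters. The stretches of Pde5a and Ddah1 were 68.4% and 64% G or C with 22 and 17 CpG dinucleotides, that of Ddah2 58% with 7, against medians of 52.4% and 6.

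Testing required a signal at the 40th percentile of an array or higher on 3 or more of the 9 arrays. Of the 23 probe sets 16 passed, covering 9 of the 10 genes, and 7 were too dim. Nos2, the inducible synthase, was the gene without a tested probe set. Its single probe set read 6.31, 1.06 and 1.19 on the LIF arrays, 0.753, 0.949 and 0.604 on the arrays lacking LIF, and 0.902, 1.89 and 0.79 on the donor arrays. It was under the 40th percentile on every array, with a median percentile of 9.5. The other too dim probe sets were 1 of 4 for Nos1, 1 of 2 for Adh5, 1 of 2 for Prkg1, 2 of 3 for Prkg2 and 1 of 3 for Pde5a. The kinases were close to the limit even where they passed: Prkg1 reached the 40th percentile on 4 arrays, at 0.492 to 17.2, and Prkg2 on 6 arrays, at 6.46 to 21.8. Vasp, Ddah2, and the brightest probe sets of Adh5 and Ddah1 lay at median percentiles of 91.4, 90.3, 98.9 and 87.3.

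**Figure D1:**
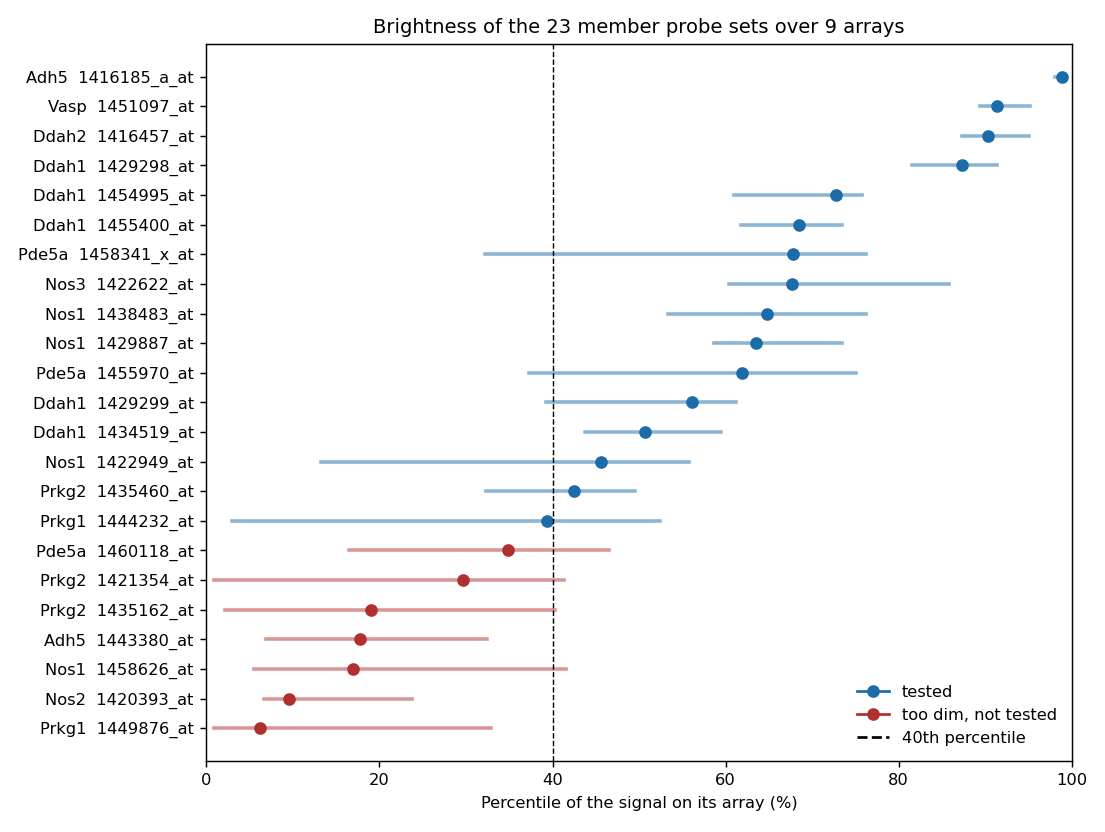
Percentile of each of the 23 member probe sets among all signals of an array, in percent. Points are medians over 9 arrays and lines run from the lowest to the highest array. Blue marks the 16 tested, red the 7 too dim, and Nos2 has a median percentile of 9.5.

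Where several probe sets of a gene were tested, the brightest by mean signal stands for it. Differences are on the scale of log2(signal + 3), which understates changes of dim probe sets, and come from a limma fit over all 29811 tested probe sets, adjusted over all of them by Benjamini-Hochberg. The 3 comparisons share groups, so their values are not independent.

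Among the synthases, Nos3, the endothelial form, varied most between arrays. Its signal was 223, 29.8 and 93.8 in LIF, 27.9, 216 and 53.4 in its absence, and 81.1, 46.3 and 29.2 under the donor. The highest 3 arrays were LIF replicate 1, no LIF replicate 2 and LIF replicate 3, and all 3 groups overlapped. Group means were 116 ± 98.5 with LIF, 98.9 ± 102 without and 52.2 ± 26.4 with the donor (SD, n = 3), and neighbours in that order did not differ beyond their spread. The log2 difference was -0.31 (SE 0.82) without LIF against LIF, -0.5 (SE 0.82) with the donor against no LIF and -0.81 (SE 0.82) with the donor against LIF. At passages 31, 33 and 34 the first of these was -2.87, 2.73 and -0.78. Its sign turned to 0.36 or 0.31 without LIF replicate 1 or no LIF replicate 1. With the donor against no LIF it turned to 0.29 without no LIF replicate 2. The donor against LIF ranged from -0.14 without LIF replicate 1 to -1.53 without LIF replicate 2. The endothelial marker list, with 7 of its 8 genes tested, had summed signals of 249 to 581 with LIF, 93.3 to 581 without and 72 to 556 with the donor. Its highest sums lay on LIF replicate 1, no LIF replicate 2 and donor replicate 1. Pecam1, which stem cells of this kind also express, supplied 366, 388 and 390 of these sums. Tie1 and Cdh5 were highest on the 3 arrays highest for Nos3. On LIF replicate 1, no LIF replicate 2 and LIF replicate 3, Tie1 read 31.6, 35.7 and 21.1 and Cdh5 26.3, 15.9 and 42. The other arrays reached 12.3 and 13.2. Pecam1, Kdr, Tek, Esam and Vwf did not have these 3 arrays highest. The part of endothelial cells in the Nos3 signal was not tested.

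Nos1, the neuronal form, is read by 3 tested probe sets. The brightest gave 118, 18.4 and 66.2 in cells given LIF, 18.9, 77.5 and 40.9 in cells denied it, and 62, 51.7 and 21.1 in donor-treated cells, so its highest arrays were the same 3 as for Nos3 and its groups overlapped. Its log2 differences were -0.41, 0.05 and -0.36 (SE 0.7 each) in the order of comparisons used for Nos3. A second probe set read 70.2, 26.5 and 85.5 on the LIF arrays, 39.5, 38.3 and 42.1 on the arrays lacking LIF, and 49.3, 42.3 and 30 on the donor arrays. The third read 32.4, 12.3 and 18.8 in LIF, 14, 11.1 and 1.3 in its absence, and 9.8, 16.7 and 3.87 under the donor. In neither was no LIF replicate 2 among the highest 3 arrays. The second gave differences of -0.42, -0.01 and -0.43, and the third -1.17, 0.25 and -0.92.

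**Figure D2:**
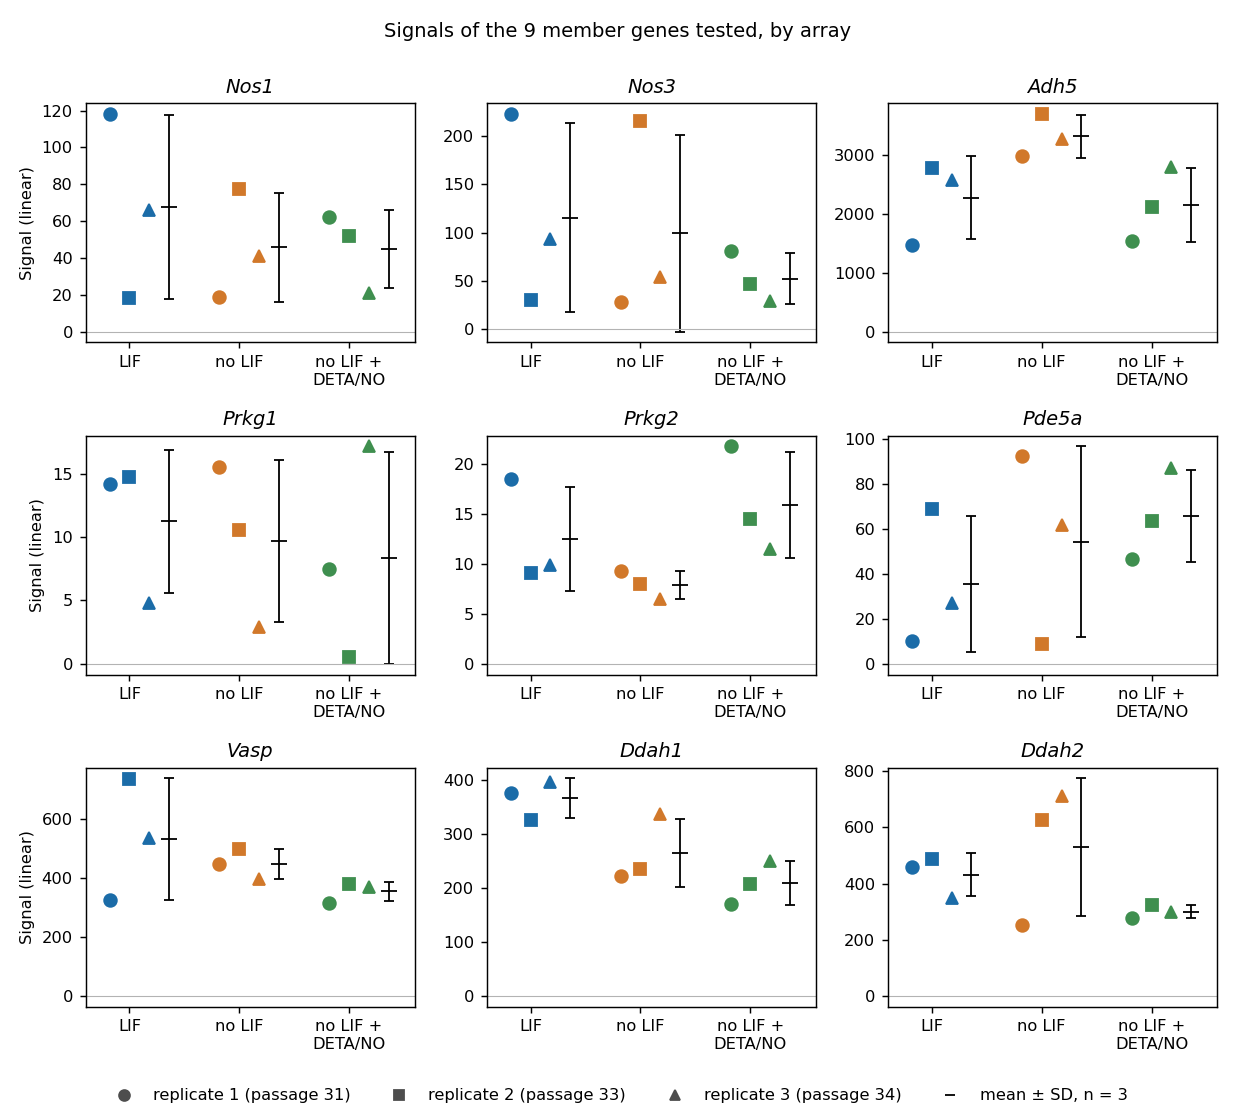
Linear signal of the probe set standing for each of the 9 tested genes, by group and array. Symbols mark replicates 1 to 3, and bars are the mean ± SD of 3 arrays. Nos3 has 1 array with LIF at 223 and 1 without at 216, while Ddah1 with the donor lies below every LIF array.

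The pattern of Pde5a ran against that of Nos3 and of the brightest Nos1 probe set. In the other Nos1 probe sets LIF replicates 1 and 3, but not no LIF replicate 2, were among the highest 3 arrays. Pde5a degrades cGMP. Its representative probe set read 10.2, 68.9 and 27.2 on the LIF arrays, 92.6, 8.81 and 61.7 on the arrays lacking LIF, and 46.4, 63.5 and 87 on the donor arrays. The 3 lowest arrays were the 3 on which Nos3 was highest. The suffix of this probe set (_x_at) marks probes that may also match other transcripts. A second probe set gave 16.9, 61.1 and 25.1 in LIF, 81.7, 8.52 and 29.7 in its absence, and 47.7, 42.8 and 87 under the donor, with no LIF replicate 2 again lowest. The log2 differences of the first were 0.45, 0.67 and 1.12 (SE 0.8 each) for no LIF against LIF, donor against no LIF and donor against LIF, and those of the second were -0.05, 0.9 and 0.85 (SE 0.7 each). The donor against LIF of the first ranged from 0.51 without LIF replicate 1 to 1.74 without LIF replicate 2. In the first comparison the signs of both probe sets thus disagreed. Group means of the first were 35.4 ± 30.2 with LIF, 54.4 ± 42.4 without and 65.6 ± 20.4 with the donor (SD, n = 3), and neighbours in that order did not differ beyond their spread. The arrays labelled LIF replicate 2 and no LIF replicate 2 are those on which Socs3 went against the labels. Without them the first comparison gave 1.98 (SE 0.58) for Pde5a and -1.83 (SE 0.66) for Nos3. The limma adjusted p was 0.553 for both, with 0 of 29811 probe sets called and 2444 at an unadjusted p under 0.05. LIF replicates 1 and 3, which remained, were among the 3 arrays highest for Nos3 and lowest for Pde5a, so these values are no support. The same omission turned the donor against no LIF to -0.24 for Pde5a and to 0.29 for Nos3.

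The 3 arrays highest for Nos3 and for the brightest of the 3 Nos1 probe sets were also the highest for Socs3 and for the naive pluripotency factor Klf4, and the lowest for Pde5a and for Fgf5, a gene of the primed epiblast. Klf4 read 2482, 2542 and 1863 on LIF replicate 1, no LIF replicate 2 and LIF replicate 3, against 197 to 1368 on the others, and Fgf5 0.888, 0.576 and 0.71 against 19.1 to 567. These arrays come from 2 groups and 3 passages, and were singled out after their values were seen, so no test was made. Of the 29811 tested probe sets, 3.55% had the same 3 arrays highest and 3.6% had them lowest. Over all 36 pairs of the 9 tested genes, the root mean square difference between centred log2 profiles was 0.41 for Nos1 and Nos3 and 2.12 for Nos3 and Pde5a, the latter the largest of the pairs. The smallest was 0.37, for Adh5 and Vasp. The 3 genes closest to the profile of Pde5a were Bspry and Stxbp6 at 0.21 and Ajuba, a LIM domain scaffold, at 0.23, against a median of 1.15 over all tested genes. Ajuba read 287, 1378 and 473 in LIF, 1832, 348 and 1179 in its absence, and 965, 1362 and 1791 under the donor.

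**Figure D3:**
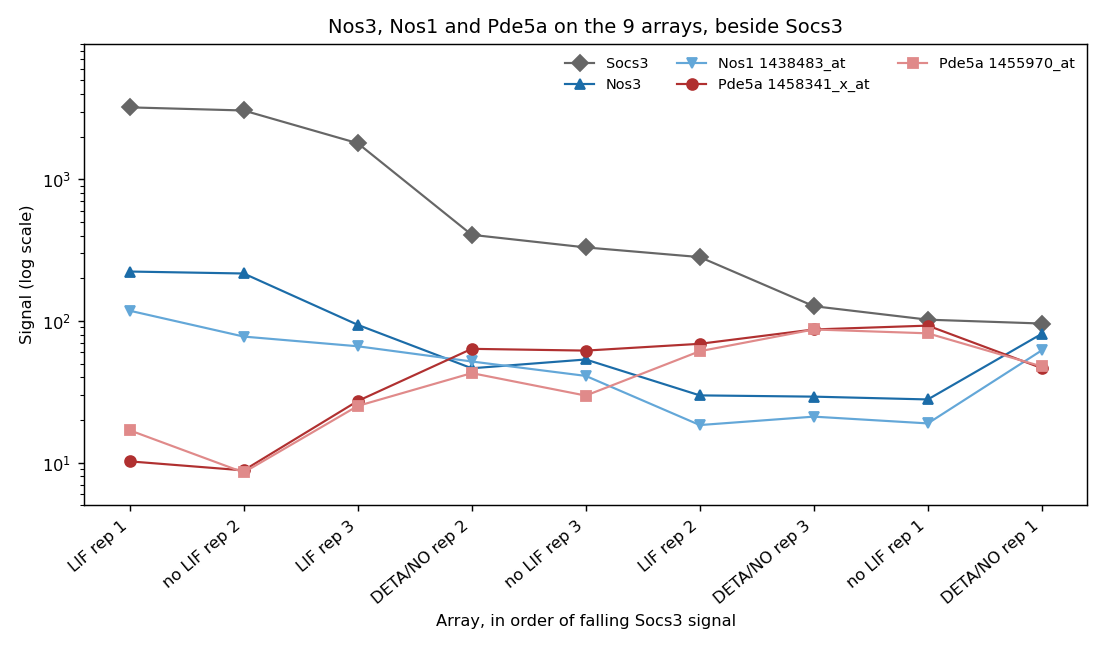
Linear signal on a log axis for Nos3, the brightest Nos1 probe set and both tested Pde5a probe sets on each of the 9 arrays, ordered by falling Socs3. On the first 3 arrays Nos3 lies at 223, 216 and 93.8 and the brighter Pde5a probe set at 10.2, 8.81 and 27.2.

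Adh5, which reduces S-nitrosoglutathione, was the brightest of the 10 genes. It read 1460, 2778 and 2572 on the LIF arrays, 2969, 3682 and 3268 on the arrays lacking LIF, and 1533, 2108 and 2791 on the donor arrays. Every array without LIF lay above every LIF array and every donor array. Group means ran from 3306 ± 358 without LIF to 2270 ± 709 with LIF and 2144 ± 630 with the donor (SD, n = 3), and the last 2 did not differ beyond their spread. The log2 difference was 0.59 (SE 0.33, adjusted p = 0.973 in limma) without LIF against LIF, and higher in 3 of 3 passages at 1.02, 0.41 and 0.35. With the donor against no LIF it was -0.66 (SE 0.33, adjusted p = 0.929 in limma), at -0.95, -0.8 and -0.23 in those passages. As the groups did not overlap, the same sign in every passage was fixed in advance. Adh5 was lower on the 3 brighter arrays, at 1460 to 2108, than on the other 6, at 2572 to 3682, as were 7.27% of all tested probe sets. With array brightness as a block the differences were 0.34 (SE 0.23) and -0.16 (SE 0.27), and after quantile normalization 0.37 and -0.42. No array without LIF is among the 3 brighter. Without LIF replicate 1, a brighter array, the first difference was 0.3. The genes closest to the Adh5 profile were the proteasome subunit Psmb6, at a root mean square difference of 0.09, the respiratory complex subunit Sdha at 0.1 and the G protein subunit Gnb1 at 0.11, against a median of 0.65.

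The kinases were read only dimly. Prkg1, the kinase of smooth muscle and platelets, gave 14.2, 14.8 and 4.76 in LIF, 15.6, 10.6 and 2.87 in its absence, and 7.46, 0.492 and 17.2 under the donor, and its groups overlapped. Its log2 differences were -0.22, -0.34 and -0.56 (SE 0.71 each). The smooth muscle list, with 5 of 6 genes tested, summed to 215 to 1411 with LIF, 196 to 1559 without and 762 to 1121 with the donor, and its part in the Prkg1 signal was not tested. Prkg2, the membrane-bound form, read 18.5, 9.13 and 9.87 in cells given LIF, 9.27, 7.98 and 6.46 in cells denied it, and 21.8, 14.5 and 11.5 in donor-treated cells. Each donor array lay above each array without LIF, at 15.9 ± 5.29 against 7.9 ± 1.4 (SD, n = 3), differing by 0.77 in log2 (SE 0.42, adjusted p = 0.929 in limma). Prkg2 was higher on the 3 brighter arrays, at 14.5 to 21.8, than on the other 6, at 6.46 to 11.5, as were 14.6% of all tested probe sets. With brightness as a block the difference was 0.33 (SE 0.48). Donor replicates 1 and 2 but no array without LIF are among the 3 brighter, so this block cannot fully separate brightness from the donor.

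Vasp, an actin regulator phosphorylated by both kinases, read 324, 736 and 535 in LIF, 448, 498 and 398 in its absence, and 316, 379 and 368 under the donor. Donor arrays all lay below the arrays without LIF, and overlapped with LIF replicate 1. The means were 532 ± 206, 448 ± 49.9 and 354 ± 33.5 (SD, n = 3), and the first 2 did not differ beyond their spread. The log2 difference with the donor against no LIF was -0.33 (SE 0.36, adjusted p = 0.946 in limma), and 0.01 (SE 0.38) with brightness as a block. The limit of that block given for Prkg2 holds for Vasp as well.

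Ddah1 gave the smallest p among the members. Its brightest probe set read 377, 326 and 397 on the LIF arrays, 222, 236 and 338 on the arrays lacking LIF, and 170, 208 and 251 on the donor arrays. Donor arrays lay below all LIF arrays, and the group without LIF overlapped with both. Mean signals were 367 ± 36.7 with LIF, 265 ± 63.7 without and 210 ± 40.5 with the donor (SD, n = 3). For the donor against LIF, passages 31, 33 and 34 gave log2 differences of -1.14, -0.64 and -0.66. As these groups did not overlap, the same sign in every passage was fixed in advance. The fitted difference was -0.81 on the log2 scale (SE 0.33, 95% confidence interval -1.54 to -0.08). The unadjusted p was 0.0329 and the limma adjusted p was 1, so it did not pass. The other comparisons gave -0.48 for no LIF against LIF and -0.33 for donor against no LIF (SE 0.33 each). With brightness as a block the donor against LIF stood at -0.75 (SE 0.33), and between -0.95 and -0.67 when each array was left out in turn. Of the 4 other tested probe sets of Ddah1, 3 took the same sign in this comparison, at -0.39, -0.57 and -0.69, and 1 took the opposite sign, at 0.17. The one at -0.57 also had donor arrays below all LIF arrays, at 43.9 to 52.7 against 58.6 to 86.3. The probe sets at 0.17 and -0.69 are the dimmest of the 5, at 11.1 to 28.1 and 12.9 to 36.8.

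Ddah2, the second hydrolase, read 460, 489 and 347 in cells given LIF, 251, 626 and 711 in cells denied it, and 278, 324 and 298 in donor-treated cells. The array without LIF of passage 31 was the lowest of all 9, and the other 2 arrays of that group the highest. Donor arrays lay below all LIF arrays, at 300 ± 23 against 432 ± 75.1 (SD, n = 3), differing by -0.51 in log2 (SE 0.41, adjusted p = 1 in limma). The donor against no LIF differed by -0.68 (SE 0.41, adjusted p = 0.929 in limma), where passage 31 gave 0.15 and passages 33 and 34 gave -0.94 and -1.25. Without no LIF replicate 1 and donor replicate 3, the 2 arrays with the most similar profiles in this series, that difference was -1.14 (SE 0.37). It was -1.15 without no LIF replicate 1 alone, -0.49 without no LIF replicate 2 and -0.4 without no LIF replicate 3.

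**Figure D4:**
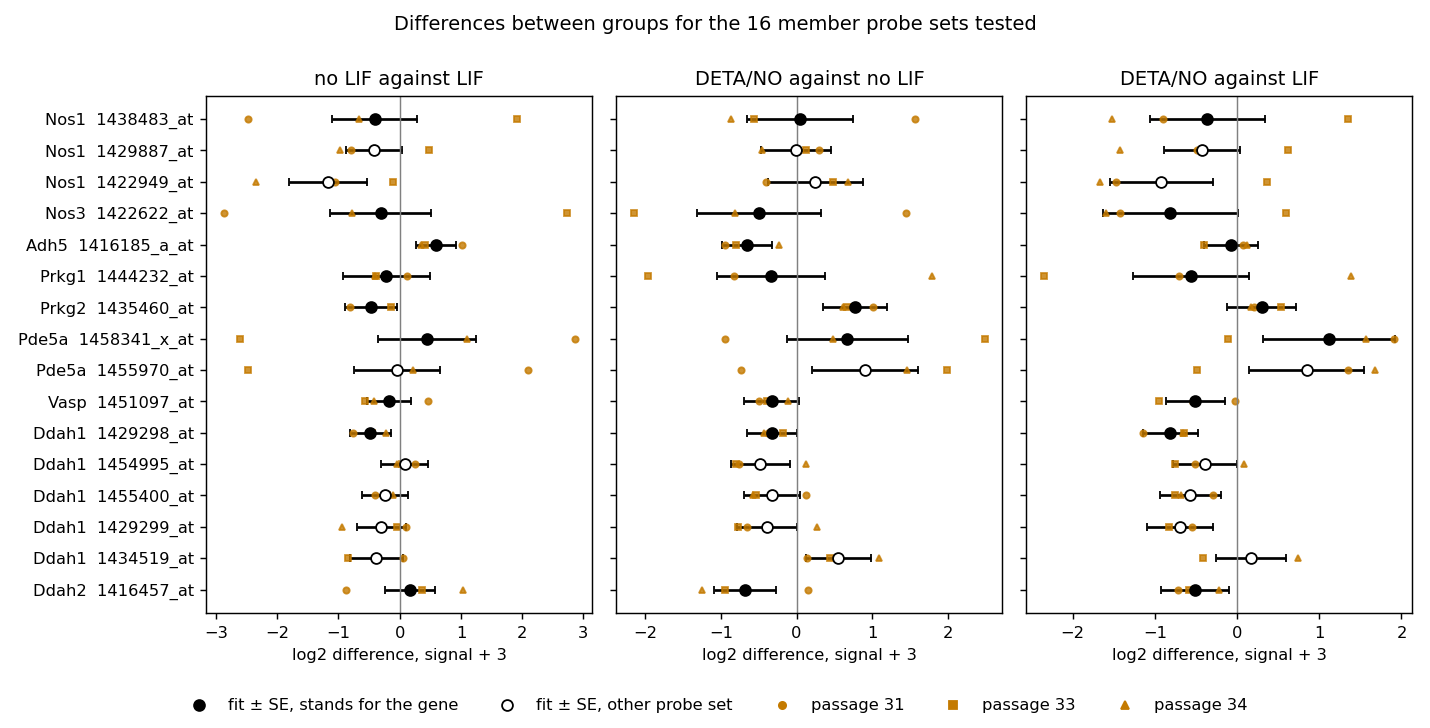
Log2 differences of the 16 tested member probe sets in the 3 comparisons. Black points are limma fits ± SE, filled for the probe set that stands for the gene, and small orange symbols are the differences within passages 31, 33 and 34. Nos3 and Pde5a take opposite signs within passages 31, 33 and 34.

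The counts over the members were read against all tested probe sets. For no LIF against LIF, limma called 0 of the 16 member probe sets and 0 of 29811 in all (0%), with 0 members at an unadjusted p under 0.05 against 1.54% of all. Groups did not overlap for 1 member, higher without LIF, against 2.88% of all in that direction, and for 0 lower against 4.72%. With the donor against no LIF, 0 members were called (0% of all), 0 had an unadjusted p under 0.05 against 5.02%, 1 did not overlap and was higher against 6.4%, and 2 did not overlap and were lower against 2.52%. With the donor against LIF, 0 were called (0% of all), 1 had an unadjusted p under 0.05 against 1.94%, 0 did not overlap higher against 2.79%, and 3 did not overlap lower against 3.19%. Those 3 are Ddah2 and 2 probe sets of Ddah1, which share 1 gene. Of the 9 genes, 6, 6 and 7 were lower in the 3 comparisons, with medians of -0.22, -0.33 and -0.51. Among all 13376 tested genes 49.6%, 52.4% and 50.9% were lower, with medians of 0.01, -0.02 and -0.01.

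The wider pathway was read through a list of 53 further genes, of which 49 have a probe set of their own and 36 were tested. Limma called 0 of the 36 higher and 0 lower in each of the 3 comparisons, and 1 gene in each had an unadjusted p under 0.05. In the comparison without LIF against LIF, 23 were higher and 13 lower (median 0.15). The donor against no LIF gave 15 higher and 21 lower (median -0.13), and the donor against LIF 17 and 19 (median -0.06).

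Soluble guanylate cyclase, the receptor of nitric oxide, was dim throughout. Gucy1a1 did not pass the filter, at 4.45 to 12.3. Gucy1b1, the obligate beta subunit, read 11.1, 8.11 and 10.1 in LIF, 18.3, 8.82 and 7.17 in its absence, and 19.7, 17.8 and 24.9 under the donor, where it lay above all LIF arrays. It reached the 40th percentile on 3 of 3 donor arrays, 1 of 3 without LIF and 0 of 3 with LIF, so it passed the filter only through the group where it is high, and its difference supports nothing. Gucy1a2, an alpha subunit, read 29.2, 18.2 and 17.7 with the donor and 10.4, 4.44 and 13.9 without LIF, differing by 1.02 (SE 0.5, adjusted p = 0.929 in limma). The 3 brighter arrays held the highest Gucy1a2 signals, at 18.2 to 29.2 against 4.44 to 17.7.

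Genes for the supply of tetrahydrobiopterin, a cofactor of the synthases, had a median difference of -0.67 for the donor against no LIF, lower in 5 of 5 tested where 52.4% of all genes were lower, and none passed. They are 1 of 8 roles in the list. Of the 5, Pts, Spr and Qdpr were lower on the 3 brighter arrays, as were 7.27% of all tested probe sets. Donor arrays are 2 of these 3, and the part of brightness was not tested. Qdpr, which recycles the cofactor, read 994, 1249 and 1416 in LIF, 1840, 2452 and 2158 in its absence, and 816, 1179 and 1772 under the donor. Its probe set also has the suffix _x_at, so its probes may match other transcripts. Arrays without LIF lay above all others. The differences were 0.82 (SE 0.33, adjusted p = 0.973 in limma) without LIF against LIF and -0.84 (SE 0.33, adjusted p = 0.929 in limma) with the donor against no LIF. Like Adh5, Qdpr was lower on the 3 brighter arrays, at 816 to 1179 against 1249 to 2452.

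Transcripts for the clearance of S-nitrosothiols and oxidants, such as those of thioredoxin (Txn1) and its reductase (Txnrd1), had a median difference of 0.75 without LIF against LIF, with 6 of 6 higher where 49.6% of all genes were lower. For the donor against no LIF the median was -0.64 with 6 of 6 lower, where 52.4% of all genes were lower. For the donor against LIF it was 0.22 with 4 higher and 2 lower. These genes are 1 of 8 roles in the list, and the first 2 comparisons share the arrays without LIF. None passed. Of the 6, Txn1, Txnrd1 and Cbr1 were lower on the 3 brighter arrays, with Txn1 at 614 to 1520 against 1638 to 5135. So were 7.27% of all tested probe sets, and the part of brightness was not tested. Among arginine genes, the transporter Slc7a2 read 24, 13.7 and 47.9 in LIF, 14.2, 9.67 and 10.3 in its absence, and 7.42, 8.73 and 15.4 under the donor. Its differences from LIF were -0.99 (SE 0.49, adjusted p = 0.973 in limma) without LIF and -1.12 (SE 0.49, adjusted p = 1 in limma) with the donor, and groups overlapped in both.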

How the data were processed

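Each of the 9 arrays measured 1 labelled culture. The deposited values are signal intensities on a linear scale, made by the authors with GeneChip Operating System 1.4.0.036 and global scaling, per the series' design text, and MAS5 is named in the submitters' processing notes. Each column has a trimmed mean of 100. Detection calls were not used here. Gene names come from the platform annotation, and all 23 member probe sets matched RefSeq genes of GRCm38.p6 by Entrez identifier.

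Here, the scale was log2(signal + 3), where 3 is the rounded 20th percentile of all signals. The 64 control probe sets were left out. Probe sets that reached the 40th percentile on fewer than 3 arrays were not tested. One limma 3.58.1 fit (R 4.3.3, eBayes with intensity trend, group as the only term, two-sided, threshold 0.05) covered all 9 arrays, and was tested on simulated data. Replicate numbers stand for passages, per the labels. Deviations from group means correlated at -0.6 to 0.65 between arrays of the same number, over 0.1 in 3 of 9 pairs. The number of arrays, 3 per group, limits the precision. Genes named are the 10 members, the pathway genes with the 2 smallest p in each comparison, the genes closest in profile to the most variable and the brightest member, and array checks. Gucy1a1, Pts, Spr, Txn1, Txnrd1, Cbr1, Ajuba's signals and the printed marker genes were chosen as examples. Members and lists were chosen with earlier results of these data known. Alternatives covered pseudocount, filter, normalization, variance trend, arrays fitted, blocks, probe sets and the omission of arrays.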

Additional observations from a re-analysis of the deposited data

How the results depend on the processing

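Limma called 0 probe sets in each of the 3 comparisons under every alternative run, including the omission of each array in turn. Unadjusted p under 0.05 ranged over 157 to 2444, 486 to 4290 and 241 to 1653 probe sets for no LIF against LIF, donor against no LIF and donor against LIF. The counts of 157 and 241 are of the 20069 probe sets past a stricter filter at the 60th percentile. The other ends of these ranges are of 29811, so the counts do not share 1 total. With the replicate block, 493, 1602 and 471 had such a p and 0 were called.

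Of 555 alternative values of the 27 member differences, 511 kept their sign, 44 took the other sign and 0 passed the threshold, and the causes were not tested. Changes of filter or variance trend, a fit of only the groups compared and the replicate block leave a difference as it is. So does the omission of an array outside the comparison. The signs under these settings were fixed in advance and are counted in the 511, which is therefore no measure of stability. The array brightness block gave 0.09, 0.19, -0.94, 0.06, 0.01 and 0.18 for, in turn, Nos1 and Nos3 (no LIF against LIF), Nos1, Prkg1 and Vasp (donor against no LIF) and Adh5 (donor against LIF). Without no LIF replicate 1 and donor replicate 3, Nos1, Nos3 and Pde5a stood at 0.07, 0.31 and -0.15 (no LIF against LIF) and Nos1 at 0.08 (donor against LIF). Without the replicate 2 arrays with and without LIF, Vasp stood at 0.02 (no LIF against LIF), Nos3 and Pde5a at 0.29 and -0.24 (donor against no LIF) and Adh5 at 0.1 (donor against LIF). Quantile normalization gave 0 for Prkg1 (no LIF against LIF) and -0.19 for Nos1 (donor against no LIF). Other probe sets gave -0.05 for Pde5a and 0.08 for Ddah1 (no LIF against LIF), -0.01 for Nos1 and 0.55 for Ddah1 (donor against no LIF), and 0.17 for Ddah1 (donor against LIF).

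Leaving out 1 array at a time moved no LIF against LIF over -1.11 to 0.15 for Nos1, -1.1 to 0.36 for Nos3, -0.61 to 0.26 for Prkg1, -0.16 to 1.36 for Pde5a, -0.49 to 0.1 for Vasp and -0.11 to 0.64 for Ddah2. The sign turned without LIF replicate 1 or no LIF replicate 1 for Nos1, Nos3 and Pde5a, without no LIF replicate 3 for Prkg1, without LIF replicate 2 for Vasp and without no LIF replicate 2 or 3 for Ddah2. For the donor against no LIF the ranges were -0.43 to 0.51 for Nos1, -1.12 to 0.29 for Nos3, -0.92 to 0.35 for Prkg1 and -0.24 to 1.27 for Pde5a, turning without no LIF replicate 1, donor replicate 1 or donor replicate 2 for Nos1, without no LIF replicate 2 for Nos3 and Pde5a, and without no LIF replicate 1 or donor replicate 2 for Prkg1. For the donor against LIF they were -1.06 to 0.2 for Nos1, -0.36 to 0.15 for Adh5 and -1.14 to 0.12 for Prkg1, turning without LIF replicate 1 or donor replicate 3 for Nos1, without LIF replicate 2, LIF replicate 3 or donor replicate 1 for Adh5, and without donor replicate 2 for Prkg1. Under the stricter filter Prkg1 and Prkg2 gave no value.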
